A study of Homo sapiens with 6 samples.

Results

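ATF4, DDIT3, 18 further genes of the ATF4 program and 18 cytosolic aminoacyl-tRNA synthetases were followed by RNA-seq in H2087-LCC cells. These 38 genes were taken by symbol from a table of 21293 genes, the synthetases under older names such as AARS (now AARS1), and all 38 were listed. H2087-LCC cells derive by selection in mice from H2087, a human lung adenocarcinoma line, for latency competence, and the labels call them a dormant metastatic derivative. Cells of this 1 population received SB505124 (SB), which blocks the kinase of the type I TGFβ receptor, for 3 days, TGFβ for 3 days, or TGFβ for 7 days, with 2 libraries per group. In the study's legend for such read counts, replicates are described as technical, so the SDs, standard errors and p-values below cover the spread between these libraries only. SB at 7 days was not analysed here, so a difference between 7 days of TGFβ and SB cannot be told apart from a difference in time in culture. An untreated group was not analysed either, so effects of added TGFβ and of the inhibitor cannot be told apart.

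ATF4 is a basic leucine zipper transcription factor whose mRNA is translated more when eIF2 is phosphorylated by a stress kinase, so its activity is set largely at translation and not by its mRNA level. With C/EBP family partners it binds composite C/EBP-ATF elements and raises genes for amino acid synthesis, amino acid uptake, tRNA charging and the stress response itself, among them DDIT3, which encodes CHOP. Aminoacyl-tRNA synthetases join each amino acid to its tRNA, and uncharged tRNA is the signal that activates the eIF2 kinase GCN2.

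The normalized counts summed to between 34306283 and 36340734 per library, and low values put 1 read at 0.896 to 1.10 normalized counts. The correlation of log2 values between the libraries of a group was 0.991 for SB, 0.995 at 3 days and 0.996 at 7 days, over 11389 genes. The SB libraries stood furthest apart, with SFTPB, a surfactant protein gene, at 1104 and 8273. All 6 TGFβ response genes examined were higher than SB at both times, and of 10 lung epithelial and carcinoma markers 7 were lower and 1, KRT7, was higher at both. Of 12 leukocyte, endothelial and erythroid markers, 11 were listed, HBB was at 0 in every library, PTPRC reached at most 4 and CD3E at most 1. CD68 (4368 to 5113) and PECAM1 (36 to 67) were the markers of that list with a mean of at least 10, and PECAM1 was higher at 3 days (0.72, adjusted p = 0.039).

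The composite element recognized by ATF4 was searched for as the letters TGATGNAAN, on both strands, in the 250 bases before every RefSeq start listed for a gene in GRCh38.p14. No second motif was searched. Of the 38 genes 29 had a listed start, and 6 of these 29 (20.7%) held a match, against 1057 of 27305 genes (3.87%). Matches were found for 3 of 15 listed targets (ASNS, CHAC1 and SLC1A5) and 3 of 14 listed synthetases (AARS, GARS and IARS). They are shown because the expression results of these 6 genes are described below. Each line gives the strand of the gene with the match in capitals and up to 30 bases on each side.
ASNS, chr7:97872438-97872506, minus strand: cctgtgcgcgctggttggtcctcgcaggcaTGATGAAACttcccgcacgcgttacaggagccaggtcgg
CHAC1, chr15:40953231-40953299, plus strand: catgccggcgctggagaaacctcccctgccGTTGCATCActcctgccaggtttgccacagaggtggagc
SLC1A5, chr19:46784873-46784941, minus strand: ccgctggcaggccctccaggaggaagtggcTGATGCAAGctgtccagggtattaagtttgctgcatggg
AARS, chr16:70289656-70289724, minus strand: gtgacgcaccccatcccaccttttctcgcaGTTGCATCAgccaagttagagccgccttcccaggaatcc
GARS, chr7:30594814-30594877, plus strand: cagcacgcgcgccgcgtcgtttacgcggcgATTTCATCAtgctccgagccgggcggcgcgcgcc
IARS, chr9:92293698-92293741, minus strand: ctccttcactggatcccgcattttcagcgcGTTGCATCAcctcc
CHAC1, AARS and IARS held the same letters, GTTGCATCA, which match the motif on the opposite strand. The match began 68 bases before the start in ASNS, 97 in SLC1A5, 188 in AARS, 210 in CHAC1, 34 in GARS and 14 in IARS. A match describes these letters only and was not tested for binding.

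In SB, levels per kilobase of annotated transcript spanned a wide range among the 38 genes. ATF4 was the highest, at 10486 normalized counts per kb, followed by the synthetases KARS (7459), AARS (7331), TARS (7261) and GARS (7155). CARS, which charges cysteine tRNA, was the lowest synthetase at 1126 normalized counts per kb. Among the targets, SHMT2 (5557) and the transporter subunit SLC3A2 (4131) led, and SESN2 (243), CHAC1 (86.2) and VLDLR (29.2) were the lowest. After 7 days of TGFβ, DDIT4 moved from 1006 to 3414 normalized counts per kb and PHGDH from 3038 to 5520, above most other targets.

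**Figure D1:**
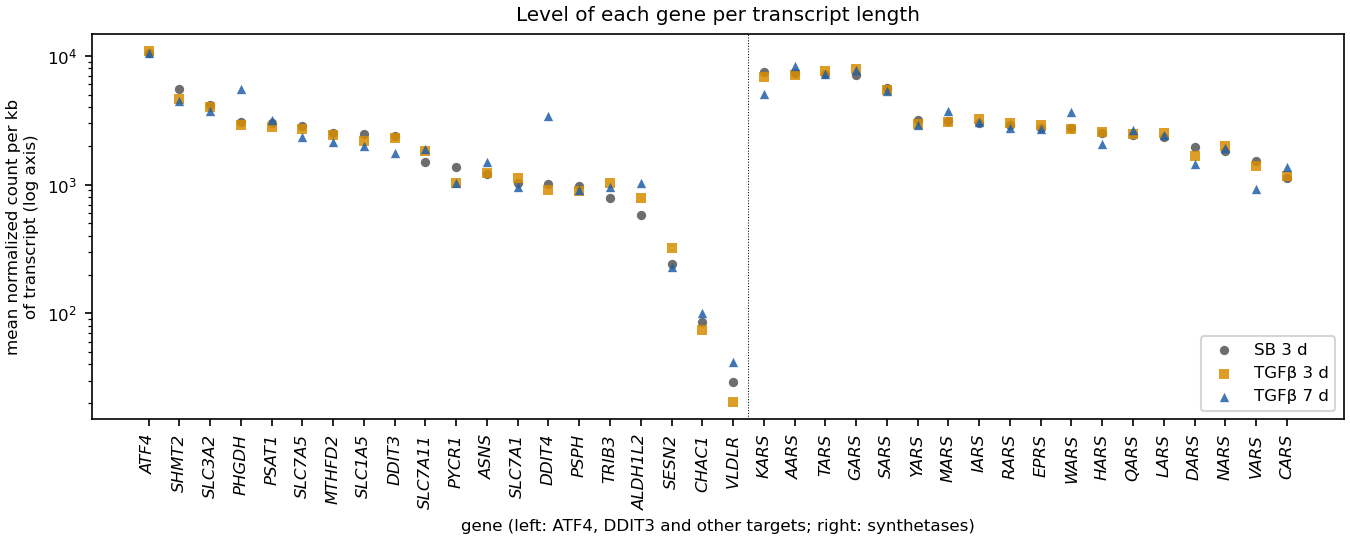
Mean normalized count per kilobase of transcript (log axis) for each of the 38 genes, with ATF4, DDIT3 and the other targets on the left and the synthetases on the right, each side ordered by SB level. Points are the means of 2 libraries for SB at 3 days (grey circles), TGFβ at 3 days (orange squares) and TGFβ at 7 days (blue triangles), from 10863 for ATF4 down to 20.5 for VLDLR, both in TGFβ at 3 days.

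The first question was which of these genes differed from SB after 3 days of TGFβ. Among the 38, 4 were higher, 2 were lower and 32 did not pass the test (limma, Benjamini-Hochberg adjusted p of 0.05 over 14395 genes), so that 15.8% were called against 29.0% of all genes tested (14.9% higher and 14.0% lower). ALDH1L2, SESN2, TRIB3 and SLC7A11 were higher and VLDLR and PYCR1 were lower, and none of the 18 synthetases was called. DARS alone among them had an unadjusted p under 0.05 in that limma fit, which was the only tool run. The median log2 fold change was -0.03 over the 38 genes and -0.02 over all genes. In bulk RNA, fewer cells of a type and less RNA per cell cannot be told apart. Without SB replicate 2 only ALDH1L2 remained past the threshold, without TGFβ 3-day replicate 1 there were 3 calls, and there were 2 with no filter (ALDH1L2 and TRIB3) or no trend (ALDH1L2 and VLDLR).

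After 7 days of TGFβ, 10 genes were higher than in SB, 10 were lower and 18 did not pass the test. The share called was 52.6%, against 54.5% of all genes tested, of which 27.7% were higher and 26.9% lower. The 20 genes other than synthetases gave 7 higher and 6 lower, and the 18 synthetases gave 3 higher and 4 lower, with a median of 0.01 for the 38 genes and -0.00 for all genes. These comparisons with SB share the same 2 SB libraries. Leaving out SB replicate 1 left 12 calls and leaving out TGFβ 7-day replicate 2 left 8. With no filter MTHFD2, PYCR1, SHMT2, SLC1A5 and SLC7A5 lost their calls, and with no trend these and HARS, MARS, SLC7A11 and TRIB3, which left 11. Upper-quartile scaling removed the calls of MTHFD2 and SLC7A5.

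Between 7 and 3 days of TGFβ, 9 genes were higher at 7 days, 5 were lower and 24 did not pass the test. The share called was 36.8%, against 33.2% of all genes tested, of which 17.0% were higher and 16.2% lower. The genes other than synthetases gave 5 higher and 2 lower and the synthetases 4 higher and 3 lower. With each of the 4 libraries of these groups left out in turn, 7 to 9 calls were left. With no filter there were 8 calls, without those of AARS, CARS, DDIT3, HARS, MARS and WARS, and with no trend 7, without these and ASNS.

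**Figure D2:**
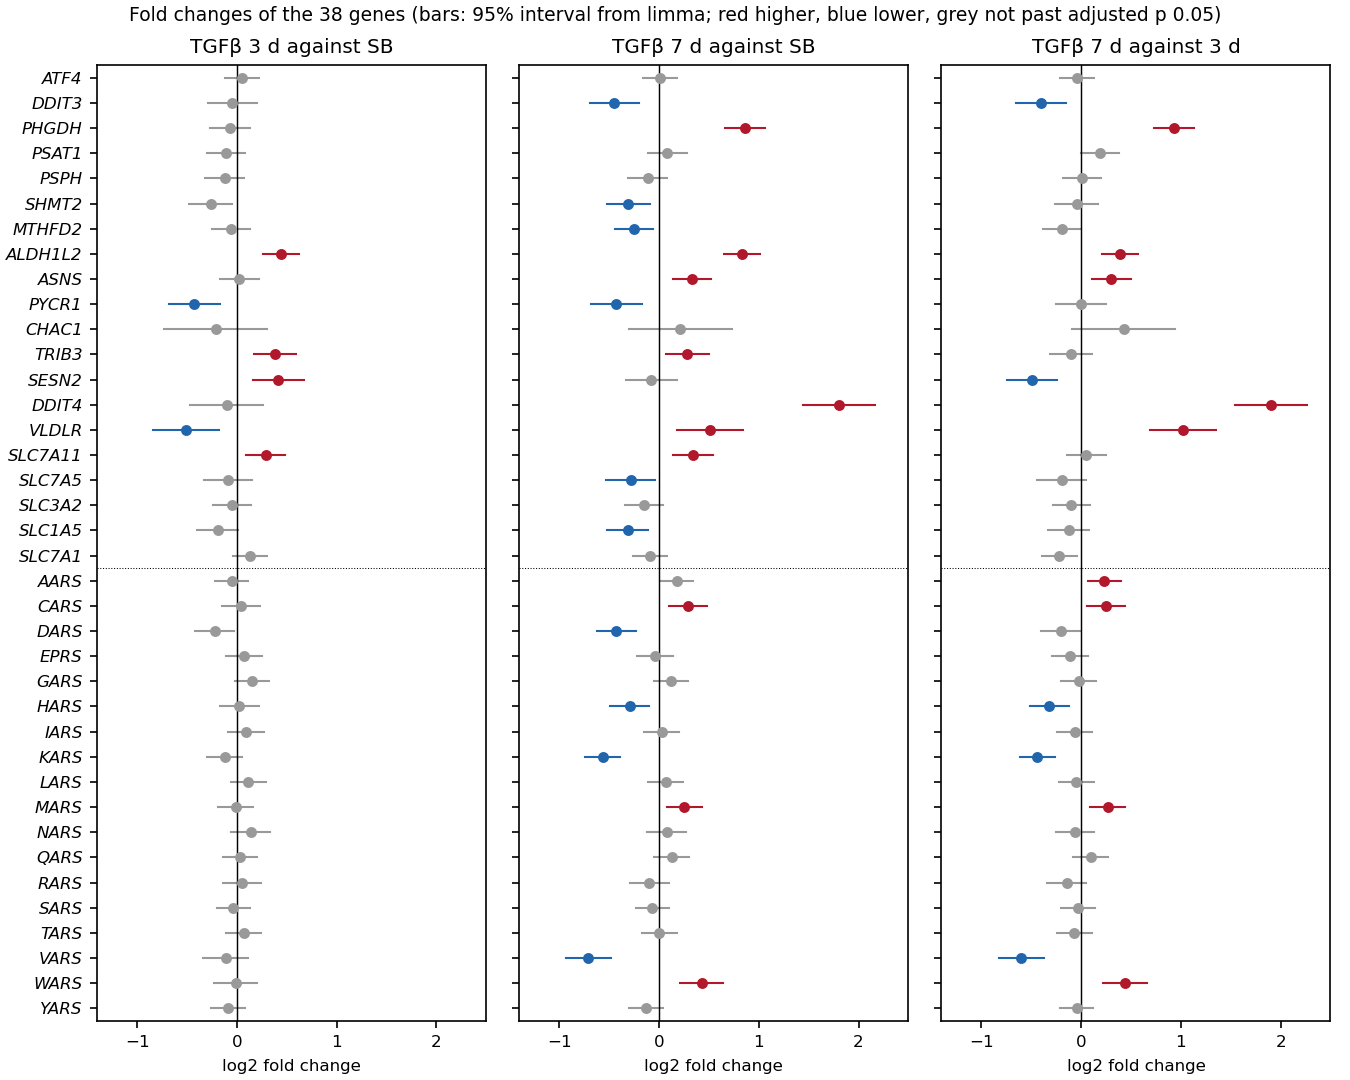
Log2 fold change on the log2(normalized count + 1) scale of the 38 genes in the 3 comparisons, with the 95% interval from limma, ATF4, DDIT3 and the other targets above the dotted line and the synthetases below it. Red marks higher and blue lower genes past an adjusted p of 0.05, grey the others, and DDIT4 lies furthest right at 7 days (1.80 against SB, 1.91 against 3 days) while VARS lies furthest left of the synthetases (-0.71 and -0.60).

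ATF4 mRNA did not pass the test in any comparison. Its normalized count was 15252 and 14506 in SB, 15972 and 14856 at 3 days and 15061 and 14875 at 7 days. The 3 groups overlapped, and the log2 fold changes were 0.05 (95% interval -0.12 to 0.22) at 3 days and 0.01 (-0.16 to 0.18) at 7 days against SB, with adjusted p of 0.67 and 0.93. Neither value says anything about ATF4 protein, which was not measured here. ATF4 has 4 pseudogenes by name in the GRCh37 annotation, and since the study counted reads that map to 1 place, reads shared with these copies were left out of its count. Such copies are also listed for other members, among them MTHFD2 (7), PSAT1 (4), KARS (3) and ASNS, whose counts carry the same limit.

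DDIT3 encodes CHOP, a C/EBP family factor that can pair with ATF4 and is itself raised by it. DDIT3 mRNA stood at a normalized count of 2374 and 1944 in SB, 2151 and 2014 at 3 days and 1488 and 1668 at 7 days, so that both 7-day libraries lay below the other 4. Its mean of 1578 ± 127 (SD, n = 2) was 0.731 times that in SB. DDIT3 fell by 0.45 against SB (SE 0.11, adjusted p = 0.0055) and by 0.40 against 3 days (adjusted p = 0.019), and both calls were lost without TGFβ 7-day replicate 1, the second also without TGFβ 3-day replicate 1. In GRCh37 (chr12:57910371-57915520, minus strand), its exons overlap those of the plus-strand genes MBD6 and MARS, the latter a synthetase gene. The larger of these overlaps covers 27.2% of its exonic bases. The library kit did not mark strand, so reads from overlapping bases cannot be assigned to a gene by strand. MARS had a log2 fold change of 0.25 against SB at 7 days. How far shared bases affect the counts of these genes was not tested. Exons of other members overlap further genes as well, among them PYCR1 (14.1% of exonic bases) and MTHFD2 (11.6%).

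The 6 enzymes of serine, glycine and folate metabolism did not move together. At 7 days against SB, PHGDH and ALDH1L2 were higher, SHMT2 and MTHFD2 were lower, and PSAT1 and PSPH did not pass the test. At 3 days ALDH1L2 was the only one called. The shares called were 66.7% at 7 days and 16.7% at 3 days, beside 54.5% and 29.0% of all genes tested. Of all genes at 7 days, 27.7% were higher and 26.9% lower, so calls in both directions were common. PHGDH catalyzes the first step of serine synthesis from a glycolytic intermediate. Its mRNA stood at normalized counts of 5429 and 5910 in SB, 5161 and 5628 at 3 days and 10925 and 9675 at 7 days. The SB and 3-day libraries overlapped and both 7-day libraries lay above them, with a mean 1.82-fold that in SB and 1.91-fold that at 3 days. PHGDH rose by 0.86 (SE 0.09, adjusted p = 1.2e-05) against SB and by 0.93 (adjusted p = 4.2e-05) against 3 days on the log2 scale, and it was called in all 18 alternative analyses of both comparisons.

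PSAT1 and PSPH encode the enzymes of the next steps from the PHGDH product to serine. PSAT1 stood at 6975 and 6274 in SB and 6939 and 7090 at 7 days, a log2 fold change of 0.08 (95% interval -0.11 to 0.28). For PSPH the values were 1916 and 1945 in SB and 1779 and 1787 at 7 days, a log2 fold change of -0.11 (-0.31 to 0.08). Their intervals lay below that of PHGDH (0.66 to 1.06). SHMT2, the mitochondrial enzyme that converts serine to glycine, was at 12104 and 11868 in SB and 10508 and 8904 at 7 days and fell by 0.31 (adjusted p = 0.020). MTHFD2, a mitochondrial folate dehydrogenase, was at 11572 and 10682 in SB and 9032 and 9692 at 7 days and fell by 0.25 (adjusted p = 0.030). Both of these calls were lost without SB replicate 1 and without TGFβ 7-day replicate 2, and that of MTHFD2 also without TGFβ 7-day replicate 1.

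ALDH1L2 is the mitochondrial enzyme that oxidizes formyl-tetrahydrofolate. Its normalized count was 4290 and 4267 in SB, 6043 and 5594 at 3 days and 7359 and 7883 at 7 days. The groups did not overlap and stood in the order SB, 3 days, 7 days. ALDH1L2 was higher by 0.44 at 3 days (SE 0.08, adjusted p = 0.0019) and by 0.83 at 7 days (SE 0.08, adjusted p = 6.8e-06) against SB, and both calls held in all 18 alternative analyses. The step from 3 to 7 days was 0.39 (adjusted p = 0.0046), and that call was lost without TGFβ 7-day replicate 2.

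ASNS makes asparagine and is a widely used readout of ATF4 activity. Its normalized count was 2924 and 2814 in SB, 3019 and 2817 at 3 days and 3480 and 3727 at 7 days. The 7-day libraries lay above the other 4, which overlapped. ASNS was higher by 0.33 (SE 0.09, adjusted p = 0.0076) at 7 days against SB, a mean 1.26-fold that in SB, and by 0.30 (adjusted p = 0.020) against 3 days. The first call was lost without TGFβ 7-day replicate 2 and the second when any library of the 2 groups was left out. PYCR1, the mitochondrial enzyme of the last step of proline synthesis, went the other way. It stood at 2992 and 3232 in SB, 2104 and 2542 at 3 days and 2520 and 2116 at 7 days, so that the 4 TGFβ libraries lay below both SB libraries. PYCR1 fell by 0.43 at 3 days (SE 0.12, adjusted p = 0.017) and by 0.43 at 7 days (adjusted p = 0.0082), and both calls were lost without SB replicate 2, the first also without TGFβ 3-day replicate 1 and the second without TGFβ 7-day replicate 2.

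The stress-response effectors held the largest differences of the 38 genes in each comparison, VLDLR at 3 days and DDIT4 at 7 days. DDIT4 (REDD1), an inhibitor of mTORC1, was at 1353 and 2164 in SB, 1544 and 1640 at 3 days and 6154 and 5783 at 7 days. The SB libraries enclosed the 3-day libraries and both 7-day libraries stood far above, with a mean of 5968 ± 262 (SD, n = 2), 3.39-fold that in SB. DDIT4 rose by 1.80 against SB (SE 0.17, adjusted p = 3.4e-06) and by 1.91 against 3 days (adjusted p = 2.0e-05), and both calls held in all 18 alternative analyses. At 3 days its log2 fold change against SB was -0.10. It was -0.44 without SB replicate 1 and 0.23 without SB replicate 2.

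VLDLR, a receptor for lipoproteins, was at 255 and 283 in SB, 205 and 173 at 3 days and 366 and 402 at 7 days. The groups did not overlap, with the 3-day libraries lowest and the 7-day libraries highest. VLDLR fell by 0.51 at 3 days (SE 0.15, adjusted p = 0.026) and was higher by 0.51 at 7 days (SE 0.15, adjusted p = 0.014) against SB, and higher by 1.02 at 7 days than at 3 days (adjusted p = 6.0e-04). The last call held in all 18 alternative analyses, whereas the 3-day call was lost without SB replicate 2 or TGFβ 3-day replicate 2 and the 7-day call without SB replicate 1 or TGFβ 7-day replicate 2. After correction for GC content and transcript length the 7-day call against SB was lost as well.

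TRIB3, a pseudokinase that binds ATF4 and CHOP and dampens their activity, was at 2000 and 1734 in SB, 2422 and 2440 at 3 days and 2317 and 2221 at 7 days. All 4 TGFβ libraries lay above both SB libraries. TRIB3 was higher by 0.38 at 3 days (SE 0.10, adjusted p = 0.011) and by 0.28 at 7 days (adjusted p = 0.026), and each call was lost without SB replicate 2 or either TGFβ library of that time, the 7-day call also after correction for GC content and length. SESN2, a leucine-binding inhibitor of mTORC1, was at 895 and 788 in SB, 1069 and 1174 at 3 days and 841 and 753 at 7 days. SESN2 was higher than SB by 0.42 at 3 days (SE 0.12, adjusted p = 0.019) and fell by 0.49 from 3 to 7 days (adjusted p = 0.0078), with a log2 fold change of -0.08 at 7 days against SB. The 3-day call was lost without SB replicate 2 or TGFβ 3-day replicate 2, and the fall without TGFβ 3-day or 7-day replicate 2.

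CHAC1, which degrades glutathione, was at 154 and 108 in SB, 97 and 127 at 3 days and 175 and 128 at 7 days. The SB libraries overlapped both other groups, and no comparison passed the test. Its log2 fold change at 7 days against SB was 0.21 with a 95% interval of -0.30 to 0.73, the widest of the 38 genes, so that a change of the size seen in ASNS was not detectable for it here.

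**Figure D3:**
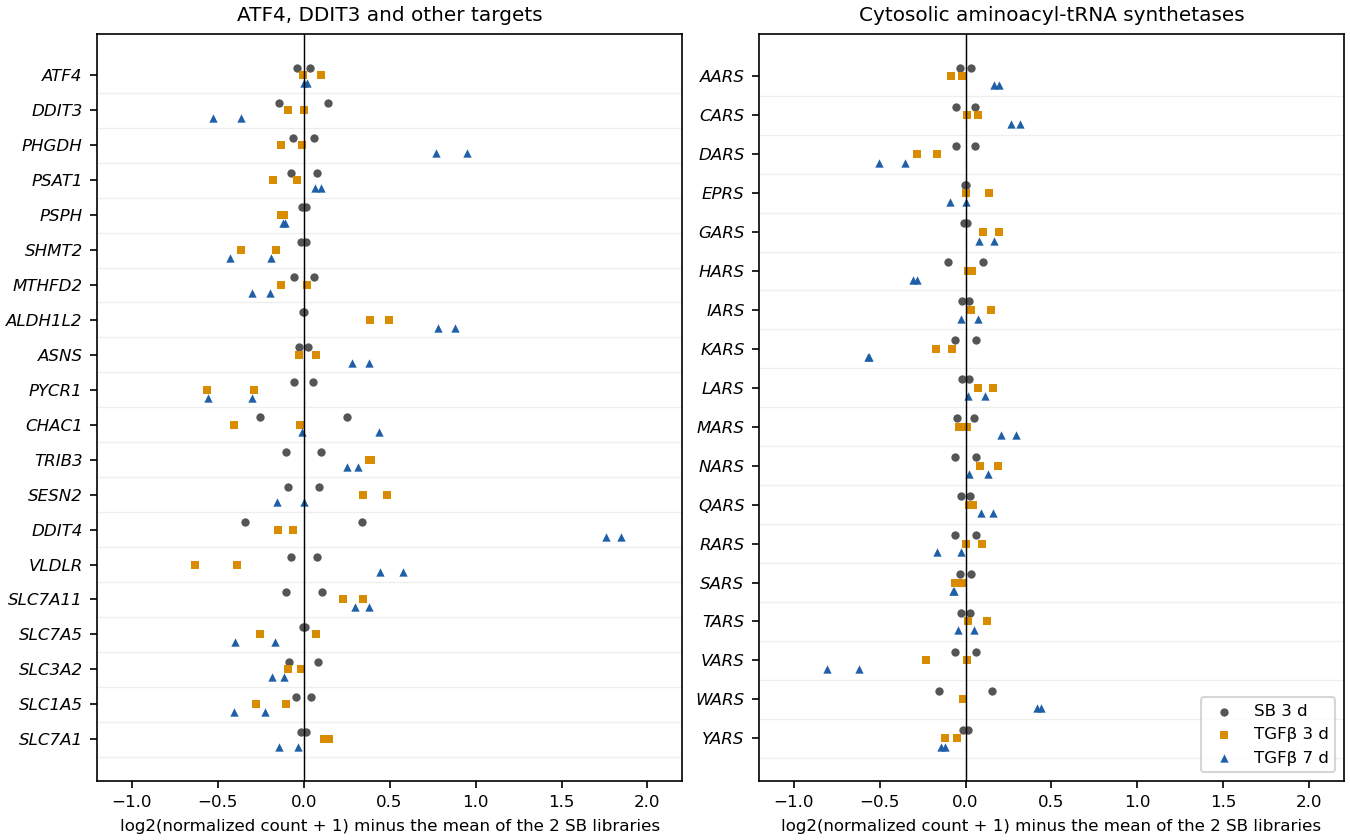
Log2(normalized count + 1) of each library minus the mean of the 2 SB libraries, for ATF4, DDIT3 and the other targets (left) and the synthetases (right). Grey circles are SB at 3 days, orange squares TGFβ at 3 days and blue triangles TGFβ at 7 days, and the 7-day points stand apart from both other groups for DDIT4 (6154 and 5783 against 1353 to 2164) and PHGDH (10925 and 9675 against 5161 to 5910).

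Of the 5 amino acid transporter genes, SLC7A11 was higher at 3 days, and at 7 days SLC7A11 was higher while SLC7A5 and SLC1A5 were lower. SLC7A11 encodes the cystine-glutamate exchanger xCT. SLC7A11 mRNA stood at 15486 and 13405 in SB, 18323 and 16867 at 3 days and 17695 and 18772 at 7 days, with all TGFβ libraries above both SB libraries. SLC7A11 was higher by 0.29 at 3 days (SE 0.09, adjusted p = 0.033) and by 0.34 at 7 days (SE 0.09, adjusted p = 0.0075). The 3-day call was lost in 9 of 18 alternative analyses, equal library totals among them, and after correction for GC content and length the 7-day value was 0.04 and not called. Without TGFβ 7-day replicate 2 the 7-day call was also lost.

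SLC7A5, the large neutral amino acid transporter LAT1, was at 12880 and 12979 in SB and 11522 and 9785 at 7 days, lower by 0.28 on the log2 scale (adjusted p = 0.049). The glutamine transporter SLC1A5 was at 7341 and 6909 in SB and 6093 and 5376 at 7 days and fell by 0.32 (adjusted p = 0.014). SLC3A2, the heavy chain that LAT1 and xCT both need, did not pass the test, with log2 fold changes of -0.05 at 3 days and -0.15 at 7 days. The calls of SLC7A5 and SLC1A5 were lost without SB replicate 1 and without TGFβ 7-day replicate 2, and that of SLC7A5 also without SB replicate 2. SLC7A1, a transporter of arginine and other cationic amino acids, had log2 fold changes of 0.13 and -0.09. Between 7 and 3 days limma called none of the 5, where 33.2% of all genes tested were called. Only SLC7A1 (-0.22, adjusted p = 0.052) had an unadjusted p under 0.05, and it was called in 7 of the 18 alternative analyses.

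Among the 18 cytosolic synthetases, log2 fold changes at 3 days against SB ran from -0.23 for DARS to 0.15 for GARS. At 7 days against SB, WARS, CARS and MARS were higher, VARS, KARS, DARS and HARS were lower, and 11 did not pass the test. The share called was 38.9%, beside 54.5% of all genes tested. VARS charges valine tRNA. Its normalized count was 5963 and 6472 in SB, 5289 and 6249 at 3 days and 4048 and 3555 at 7 days. The 7-day libraries lay below all others, with a mean 0.611 times that in SB. VARS fell by 0.71 against SB (SE 0.10, adjusted p = 1.3e-04) and by 0.60 against 3 days (adjusted p = 0.0014).

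KARS, the lysyl-tRNA synthetase of the cytosol and the mitochondria, was at 15474 and 14227 in SB, 14077 and 13165 at 3 days and 10035 and 10019 at 7 days. Both 7-day libraries again lay below all others. KARS fell by 0.57 against SB (SE 0.08, adjusted p = 1.1e-04) and by 0.44 against 3 days (adjusted p = 0.0020). The calls of VARS and KARS held in all 18 alternative analyses in both comparisons. DARS, the aspartyl-tRNA synthetase, was at 6304 and 5853 in SB, 5410 and 4990 at 3 days and 4279 and 4754 at 7 days and fell by 0.43 at 7 days against SB (adjusted p = 0.0017), also held in all 18. HARS, which charges histidine tRNA, was at 5253 and 4577 in SB and 4024 and 3962 at 7 days and fell by 0.30 (adjusted p = 0.014), a call lost without SB replicate 1 or either 7-day library.

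WARS, the tryptophanyl-tRNA synthetase, was at 6503 and 8038 in SB, 7160 and 7170 at 3 days and 9793 and 9649 at 7 days. The SB libraries enclosed those at 3 days, and both 7-day libraries lay above all others. WARS rose by 0.43 against SB (SE 0.10, adjusted p = 0.0032) and by 0.44 against 3 days (adjusted p = 0.0060). The call against SB held in all 18 alternative analyses, and that against 3 days was lost with no filter and with no trend. Smaller rises were called for CARS (0.29, adjusted p = 0.013) and for the methionyl-tRNA synthetase MARS (0.25, adjusted p = 0.019). Both were lost when SB replicate 1 or either 7-day library was left out.

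From 3 to 7 days WARS, MARS, CARS and AARS were higher and VARS, KARS and HARS were lower. These make up 38.9% of the synthetases, near the 33.2% of all genes called in that comparison. AARS, which charges alanine tRNA, was at 23798 and 24784 at 3 days and 28790 and 28256 at 7 days, higher by 0.23 (adjusted p = 0.035). Leaving out any library of these 2 groups removed the calls of AARS, CARS, MARS and HARS and left 3 synthetases, and median-of-ratios scaling removed those of AARS and CARS. The members without a call in any comparison were EPRS, GARS, IARS, LARS, NARS, QARS, RARS, SARS, TARS and YARS, with log2 fold changes between -0.15 and 0.15. EPRS, which carries the activities for glutamate and proline, was for example at 13405 and 13497 in SB and 12651 and 13491 at 7 days.

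Of the 6 genes whose promoter sequences are printed above, ASNS was higher and SLC1A5 lower at 7 days against SB. Of all genes tested there, 54.5% were called, 27.7% higher and 26.9% lower. CHAC1, AARS, GARS and IARS did not pass the test in that comparison, with log2 fold changes of 0.21, 0.18, 0.12 and 0.02. PHGDH and DDIT4, the members with the largest rises at 7 days, had a listed start and no match to these letters in the window searched. VARS, DARS and ALDH1L2 had no listed start.

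Most of the other components of the tRNA charging machinery examined were lower than SB at 7 days. FARSA and FARSB, the subunits of the phenylalanyl-tRNA synthetase, and AIMP1, AIMP2 and EEF1E1, scaffold proteins of the multisynthetase complex, were all 5 lower than SB at 7 days (median log2 fold change -0.58). FARSB was at 7318 and 6021 in SB and 3560 and 3643 at 7 days (-0.88), and FARSA at 2200 and 2075 in SB and 1298 and 1065 (-0.86). Of 17 mitochondrial synthetases 13 were lower, 0 higher and 4 not called at 7 days, with a median of -0.45. Of all genes tested there, 26.9% were lower and 27.7% higher. At 3 days 3 (17.6%) were lower and 0 higher, near the 14.0% of all genes that were lower. Between 7 and 3 days of TGFβ 7 were lower and 1 was higher, where 16.2% of all genes were lower and 17.0% higher. At 7 days against SB, MARS2 (-0.95), NARS2 (-0.69) and AARS2 (-0.65) fell the most. The 18 cytosolic synthetases had a median of 0.01 in the same comparison, and the difference between these lists was not tested.

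The genes upstream of ATF4 encode the eIF2 kinases, the subunits of eIF2 and its exchange factor eIF2B, and the phosphatase subunits that remove the phosphate from eIF2. Of 15 such genes, 1 was lower at 3 days (EIF2AK2, -0.51) and 7 were lower and 0 higher at 7 days against SB. The shares called in either direction were 6.67% and 46.7%, beside 29.0% and 54.5% of all genes. Every call in this list was lower, and of all genes 14.0% were lower at 3 days and 26.9% at 7 days. The difference from all genes was not tested. PPP1R15A (GADD34), the stress-inducible phosphatase subunit and an ATF4 target, was at 5720 and 4319 in SB, 3982 and 4078 at 3 days and 1502 and 1296 at 7 days. It fell by 1.83 against SB (adjusted p = 2.7e-07) and by 1.53 against 3 days. EIF2B3 (-0.81) and EIF2S1 (-0.51) were also lower. The kinase EIF2AK2 (PKR) was lower at 7 days as well (-0.51, adjusted p = 0.0023). The other kinases, EIF2AK1, EIF2AK3 (PERK) and EIF2AK4 (GCN2) had log2 fold changes of 0.04, 0.24 and -0.08 at 7 days and did not pass the test.

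Of 7 tested partners and related factors of ATF4, limma called none at 3 days, with 1 at an unadjusted p under 0.05, and at 7 days 3 were higher and 2 lower (71.4% called, 54.5% of all genes). ATF3, a stress-inducible factor downstream of ATF4, was at 415 and 401 in SB, 519 and 422 at 3 days and 146 and 163 at 7 days and fell by 1.40 (adjusted p = 1.2e-05). ATF5 fell by 0.43, and JDP2 (0.68), CEBPB (0.47) and NUPR1 (0.80, with a mean under 100) were higher. BATF was at 0 in every library. Of 20 further tested ATF4 targets, 5 of which are among those factors and 1 of which is PPP1R15A, 5 were higher and 10 lower at 7 days, and 0 higher and 4 lower at 3 days. Called in either direction were 15 of 20 at 7 days, beside 54.5% of all genes, and 4 of 20 at 3 days, beside 29.0%. By direction, the 10 lower of 20 at 7 days stand beside 26.9% of all genes and the 5 higher beside 27.7%. All 4 calls at 3 days were lower, where 14.0% of all genes were lower and 14.9% higher. Neither difference from all genes was tested. The glycine transporter SLC6A9 was at 267 and 368 in SB and 693 and 615 at 7 days (1.06, adjusted p = 2.3e-04). SLC43A1, a transporter of neutral amino acids, was at 683 and 791 in SB and 397 and 373 at 7 days (-0.93, adjusted p = 7.3e-05).

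Of 18 other folate enzymes and carriers, 1 was higher and 6 were lower at 3 days, and 2 were higher and 12 lower at 7 days, with a median of -0.40. Of all genes tested, 14.9% were higher and 14.0% lower at 3 days, and 27.7% higher and 26.9% lower at 7 days. TYMS, thymidylate synthase, fell by 1.25, SHMT1, the cytosolic counterpart of SHMT2, by 0.92, and MTHFD1, a cytosolic trifunctional folate enzyme, by 0.88. GLDC was higher at 3 days (0.96) and AMT at 7 days (0.74).

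Of 15 other targets and sensors of the unfolded protein response, not sorted by branch, 7 were higher and 0 lower at 3 days. At 7 days 9 were higher and 1 lower, and of all genes 14.9% and 27.7% were higher at the 2 times. The difference of these counts from those of the 38 genes was not tested. HERPUD1, an endoplasmic reticulum degradation factor, was at 4122 and 3710 in SB and 6664 and 5991 at 3 days (0.69, adjusted p = 1.4e-04). The co-chaperone gene DNAJB9 (0.70 at 3 days, 0.74 at 7 days) and EDEM1 (0.46 and 0.77) were also higher at both times, and SDF2L1 fell by 0.52 at 7 days. HSPA5, the chaperone BiP, was at 46438 and 41837 in SB, 67194 and 60454 at 3 days and 50928 and 54182 at 7 days. Of 14 other tested amino acid transporters, 6 were higher and 2 lower at each time against SB. These 57.1% stand beside 29.0% of all genes called at 3 days and are close to the 54.5% at 7 days. SLC36A1 (0.73 at 3 days), SLC6A6 (0.78 at 7 days) and SLC43A2 (0.71 at 7 days) were higher, and SLC43A3 (-1.10 at 3 days) and SLC1A1 (-1.12 at 3 days) were lower.

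**Figure D4:**
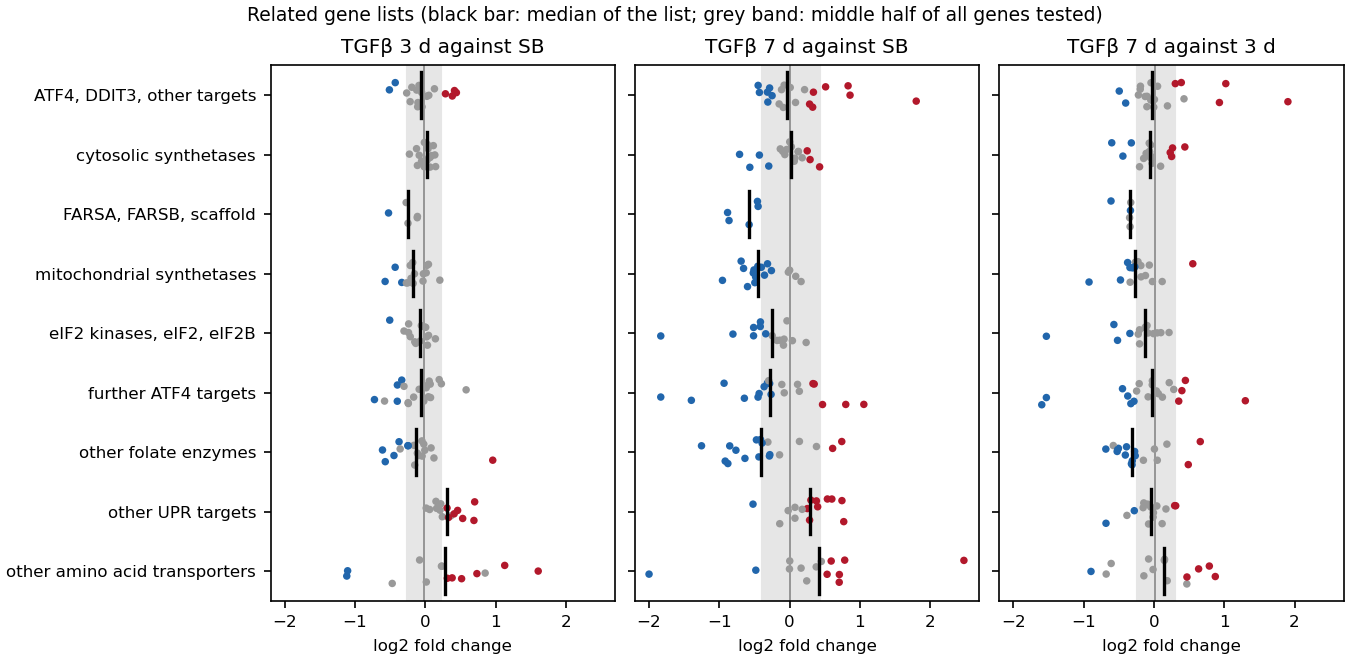
Log2 fold change of each gene of the 38 and of the related lists in the 3 comparisons, with red for higher and blue for lower genes past an adjusted p of 0.05. Black bars are list medians and the grey band spans the middle 50% of all genes tested, and at 7 days against SB the median was 0.01 for the cytosolic and -0.45 for the mitochondrial synthetases.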

How the data were processed

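RNA-seq was performed on polyA RNA of H2087-LCC cells (TruSeq RNA Sample Prep Kit v2, which does not mark strand). Per the labels and the study's methods, the authors mapped reads to hg19 with STAR, counted them on genes with HTSeq 0.6.1p1 and normalized by library size; the submitters' processing notes also list FastQC 0.11.5. The annotation release is not given in the sources used here. The deposited whole-number normalized counts are scores here, not raw read counts, so no count test was run. The table held 0 columns of other samples.

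Values were tested as log2(normalized count + 1) with limma 3.58.1 (trend, R 4.3.3) in 1 fit of the 6 libraries (3 residual degrees of freedom), for the 14395 genes whose mean was 10 or more, with Benjamini-Hochberg adjustment at 0.05. Fold changes are on that log2 scale, which understates changes of low genes. The steps were tested on simulated data whose changes were larger than those of most members called here, so smaller changes were not covered. Transcript lengths, overlaps and pseudogenes came from a GENCODE annotation on GRCh37. The 38 genes and the lists were chosen with earlier results of these data known. Library values are given for ATF4, DDIT3, ASNS, PHGDH, CHAC1 and the 6 called members with the largest log2 fold changes per comparison, and up to 3 genes per direction are named from each related list with a mean of at least 100; the others named were chosen after their values were seen. Plots used Python 3.11.15 with matplotlib 3.10.9. Alternatives were other pseudocounts, filters and scalings, no trend, the compared libraries alone, a replicate block and each library left out, 18 in all with the GC and length correction and a crossed block, which were added after seeing the data.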

Additional observations from a re-analysis of the deposited data

Results flagged for a closer look

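The effect on VLDLR differed between the times of TGFβ. It lay below SB at 3 days (-0.51) and above SB at 7 days (0.51), and the difference between the effects was 1.02 on the log2 scale with an adjusted p of 6.0e-04 in limma. Both effects are measured against the same SB libraries, and the difference is that of the 7-day and 3-day libraries alone. Its normalized counts were among the lowest of the 38 genes, at 173 to 402.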

How the results depend on the processing

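The numbers of called genes given next are for the 38 genes, for those other than synthetases and for the synthetases. At 3 days against SB the main counts were 6, 6 and 0. They were 2, 2 and 0 with no filter and with no trend, and the synthetases gave 1 with equal library totals and 2 after GC and length correction. Leaving out 1 library gave 1 to 7 for the 38 genes and 1 to 7 for those other than synthetases. At 7 days against SB the counts were 20, 13 and 7. With no filter the middle count was 8, with no trend the first and middle counts were 11 and 6, and leaving out 1 library gave 8 to 20, 4 to 13 and 4 to 8. Between 7 and 3 days the counts were 14, 7 and 7. With no filter the first and last counts were 8 and 2, with no trend 7 and 2, the middle count was 12 after GC and length correction, and leaving out 1 library gave 7 to 15, 4 to 8 and 3 to 7. No filter tests 19977 genes and a left-out library leaves fewer samples. The cause of the other shifts was not tested. A lone library left in a group is assumed to vary like the others.

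The replicate numbers were not shown to pair the samples, since the deviations of same-numbered libraries correlated at 0.21 for SB and 3 days, -0.13 for SB and 7 days and -0.65 for 3 and 7 days. With a replicate block the synthetases called between 7 and 3 days went from 7 to 4, with AARS, CARS and MARS lost, the 38 genes from 14 to 11, and the block changed no other count of members. With the 7-day numbers crossed, the block gave 8, 21 and 18 calls among the 38 genes in the 3 comparisons, 1 of them a synthetase at 3 days against SB. Calls over all genes rose with the crossed block too, from 4170, 7851 and 4775 to 5404, 8763 and 5972.

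Over all genes, 4170 calls at 3 days against SB became 2609 without TGFβ 3-day replicate 1. The 4775 calls between 7 and 3 days (2449 higher, 2326 lower) became 3042 with no filter, 3122 with no trend and 2314 to 5554 with 1 library left out, and 2596 higher and 3766 lower after GC and length correction.

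No called log2 fold change of a member changed sign under any of the 18 alternatives. Values of genes not called that changed sign were as follows. With equal library totals the values were ATF4 -0.0053, ASNS -0.032, CARS -0.016, HARS -0.031, QARS -0.026 and RARS -0.0069 at 3 days against SB, and ATF4 -0.039, IARS -0.023 and TARS -0.046 at 7 days against SB, and PYCR1 0.0056 at 7 against 3 days. After GC and length correction the values were DDIT3 0.048, PHGDH 0.024, SLC3A2 0.043, MARS 0.032, SARS 0.037 and WARS 0.0078 at 3 days against SB, and IARS -0.083 and LARS -0.063 at 7 days against SB, and SLC7A11 -0.074 at 7 against 3 days. With median-of-ratios size factors the values were TARS -0.0054 at 7 days against SB, and PSPH -0.0091 at 7 against 3 days. With upper-quartile scaling the values were PYCR1 0.011 at 7 against 3 days. With 1 library left out the ranges at 3 days against SB were DDIT3 -0.19 to 0.10, MTHFD2 -0.13 to 0.0196, CHAC1 -0.47 to 0.039, SLC3A2 -0.14 to 0.033, CARS -0.018 to 0.10, ASNS -0.026 to 0.074, DDIT4 -0.44 to 0.23, HARS -0.075 to 0.12, MARS -0.061 to 0.033, RARS -0.013 to 0.11, WARS -0.17 to 0.14, ATF4 -0.0018 to 0.10, SLC7A5 -0.25 to 0.074 and VARS -0.23 to 0.0085. With 1 library left out the ranges at 7 days against SB were SESN2 -0.17 to 0.014, TARS -0.046 to 0.0502, ATF4 -0.027 to 0.045, CHAC1 -0.041 to 0.47, EPRS -0.088 to 0.0043 and IARS -0.025 to 0.074. With 1 library left out the ranges at 7 against 3 days were ATF4 -0.094 to 0.011, PSPH -0.0016 to 0.016, GARS -0.074 to 0.021, SHMT2 -0.16 to 0.075, PYCR1 -0.14 to 0.13, SLC7A11 -0.0077 to 0.11 and LARS -0.10 to 0.00087.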
